A study of Mus musculus with 12 samples.

Results

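Microglia, the resident macrophages of the brain, were compared with and without Ppargc1a in mice that received no toxin. The comparison set the columns KO PBS 1 and KO PBS 2 against WT PBS 1 and WT PBS 2, which are 4 of the 12 samples of the series, across all genes. A gene entered when it reached 1 FPKM in at least 2 of these 4 columns. FPKM is a fragment count scaled to transcript length and library size. This left 10638 of the 21135 gene symbols of the table. The cells were primary microglia from midbrain, separated by flow cytometry. WT animals were Ppargc1a FF: they carried the floxed allele and no Cre. KO animals were Ppargc1a FF CreER, with the same floxed allele and a tamoxifen-inducible Cre, whose promoter the labels do not name. All groups were sampled 6 weeks after tamoxifen, so both genotypes share the floxed allele and the drug. Cre was present only in KO animals, so its effect and that of Ppargc1a loss cannot be told apart in this comparison. PBS is the saline vehicle given in place of MPTP, a toxin of dopaminergic neurons that other samples of the series received. Whether the replicates of a group are different animals is not given, and the p-values below describe the spread among columns, which may be technical.

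Ppargc1a encodes PGC-1alpha, a coactivator that binds transcription factors and raises the expression of their targets. Its known partners include the estrogen-related receptors, the PPARs and the nuclear respiratory factors NRF1 and GABPA, which control respiratory chain, mitochondrial DNA and fatty acid oxidation genes. In macrophages, oxidative metabolism is generally associated with repair and lipid handling, and glycolysis with inflammatory activation.

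Several columns of the table were not separate measurements. In each group, column 3 could be computed from the other columns as 0.99 times their mean plus 0.1, within rounding. The single exception was the Ppargc1a row in WT PBS 3. It was not used as a replicate. The column KO MPTP 1 equalled 1.02 times KO PBS 2 in all but 46 of 67355 rows, so the treatment of that profile is uncertain. The same factor links WT MPTP 2 to WT MPTP 1, with 28 rows off. The rows off these relations belong to 42 genes, of which 40 were tested, and 16 of these 40 are among the genes that fell in KO PBS. The total count of genes that fell is therefore given with and without KO PBS 2, and so are the results of some named genes. Counts per gene list are from the fit with KO PBS 2 only. Genes with a row off the relations are named as such. The 4 columns summed to between 388861 and 411690 FPKM and read depth is unknown. The log2 differences between the columns of a pair had a standard deviation of 0.13 for WT PBS and 0.11 for KO PBS, over genes.

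The labelled cell type was checked against its markers. General macrophage genes were high in all 4 columns: Cd68 stood at 450.49 to 491.68 FPKM, Tyrobp at 404.35 to 458.89 and Csf1r at 110.13 to 120.11. Genes that define resting microglia were low or listed at 0. Sall1 was listed at 0 in all 4 columns, Fcrls reached at most 0.01 FPKM, Siglech 0.03, Cx3cr1 0.06 and P2ry12 0.19, while Tmem119 stood at 1.85 to 1.99. Of 28 homeostatic microglia genes in the table, 10 stayed under 1 FPKM in all 4 columns. A value of 0 may stand for a gene that was not estimated, since the widely expressed genes Decr1 and Ifih1 were also listed at 0 in all 4 columns. The highest values included Spp1, Apoe, Gpnmb, Arg1 and Ctsk, each above 2408 FPKM. Markers of other cells were few: the 4 neuronal markers in the table summed to at most 0.02 FPKM in any column, with Syt1, Stmn2 and Gad2 listed at 0, and the 8 lymphocyte markers to at most 0.38. Exceptions were Flt1, Mrc1 and Pf4. Flt1, from the vascular list, stood at 81.97 to 90.07 FPKM, while the other 5 vascular markers in the table stayed under 1 FPKM. Mrc1 and Pf4, known from border macrophages, were at 143.08 to 167.9 and 170.98 to 197.42 FPKM. Lower exceptions included the oligodendrocyte marker Cnp, at 6.99 to 8.44 FPKM, and the astrocyte marker Aldh1l1, at 2.73 to 3.17. The granulocyte marker S100a8, which has a row off the relations, was at 3.68 to 4.35. The summed monocyte and border macrophage markers were 406.52 and 389.3 FPKM in WT and 384.34 and 348.34 in KO. Mrc1, Pf4, F13a1 and Ms4a7 made up nearly all of these sums. Ccr2, Ly6c2, Ly6c1 and Lyve1 reached at most 0.03, 0.04, 0.15 and 0.18 FPKM. The part of these cells in the genotype differences was not tested. In such bulk samples, fewer cells of a type and less RNA per cell cannot be told apart.

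Ppargc1a, the targeted gene, was measured at 5.70 and 6.21 FPKM in WT PBS 1 and 2, and at 0.33 and 0.12 FPKM in KO PBS 1 and 2. The genotypes did not overlap, in the direction the labels give. It fell by 2.51 on the log2(FPKM + 1) scale (SE 0.095, n = 2 columns per group, limma adjusted p = 1.63e-06), and its mean level was 96.22% lower. Ppargc1a is itself one of the genes with a row off the column relations. Without KO PBS 2 its log2 difference was -2.39 (adjusted p = 8.72e-06).

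Among all 10638 genes, 39 fell and 2 rose in KO PBS at an adjusted p under 0.05. These are 0.367% and 0.0188% of the genes tested. In all 39 genes that fell, both KO columns lay below both WT columns. That order alone was common, since 33.8% of all tested genes had it and the median log2 difference of all genes was -0.041. After rescaling the columns by their median ratio, 16.7% of genes had both KO columns lower, 16.4% had both higher, and the median was 0.003. The genes that fell had mean levels 19.57% to 96.22% below WT (median 31.71%), and 30 of the 39 had a WT mean of at least 10 FPKM. Only 3 fell by at least 1 on the log2 scale: Ppargc1a, Cebpb and Apoc1. At the threshold, the last gene called was Dnajb1 (adjusted p = 0.0483) and the next was Cox6c, a cytochrome c oxidase subunit with a row off the relations, at 252.12 and 271.43 FPKM in WT against 191.38 and 137.91 in KO (adjusted p = 0.0509).

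The count depended on single columns. Without KO PBS 2, 22 genes fell, and 18 of them were among the 39. Without KO PBS 1 the count was 19, without WT PBS 1 it was 21, and without WT PBS 2 it was 29. With genes off the column relations left out, 21 genes fell, and with KO PBS 2 left out as well, 13 did, 9 of them among the 39. Of the genes that fell, 12 were called whichever column was left out: Ppargc1a, Cebpb, Apoc1, Aarsd1, Ucp2, Atp5a1, Atp5e, Atp5h, Nfs1, Acsl1, Gsk3a and Acadm. Of these, Ppargc1a, Cebpb, Ucp2, Atp5a1, Acsl1 and Gsk3a have a row off the relations.

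**Figure D1:**
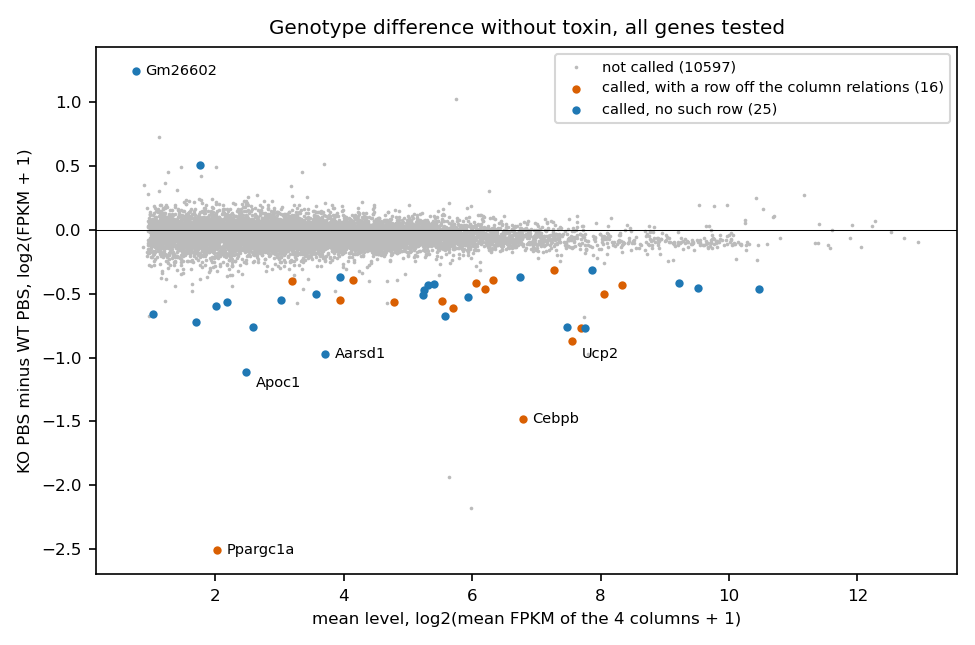
Each point is 1 of 10638 genes, with the log2 of its mean FPKM plus 1 over the 4 columns on the x axis and the KO PBS minus WT PBS difference of log2(FPKM + 1) on the y axis. Coloured points passed the test, in orange where a row of the gene is off the column relations: 39 lie below 0, led by Ppargc1a at -2.51, and 2 above.

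Promoters of oxidative genes that fell are printed here, 5 chosen because they hold letters known from DNA-binding partners of PGC-1alpha, and that of Atp5e, which holds none of them. The 250 bases before the RefSeq transcript start (GRCm38.p6) are written 5′ to 3′ along the gene. Capitals mark letters found on either strand: GCGCANGCG for NRF1 (in Atp5h, Acadm and Ogdh), CCGGAAGT for GABPA (in Atp5h and Tfam) and the nuclear receptor hexamer AGGTCA (in Acadm and Ndufs8).
Atp5h promoter (chr11:115419920-115420169, minus strand): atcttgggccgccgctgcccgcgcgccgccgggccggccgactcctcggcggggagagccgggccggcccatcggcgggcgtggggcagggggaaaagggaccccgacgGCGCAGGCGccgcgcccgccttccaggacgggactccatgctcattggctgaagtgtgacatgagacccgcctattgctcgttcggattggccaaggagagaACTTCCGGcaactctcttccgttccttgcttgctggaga
Tfam promoter (chr10:71238045-71238294, minus strand): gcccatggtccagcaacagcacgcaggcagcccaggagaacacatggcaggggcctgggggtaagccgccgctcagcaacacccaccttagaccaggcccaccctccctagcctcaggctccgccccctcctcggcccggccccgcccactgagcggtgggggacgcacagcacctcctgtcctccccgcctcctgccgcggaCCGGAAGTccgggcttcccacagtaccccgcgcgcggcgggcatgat
Acadm promoter (chr3:153944644-153944893, minus strand): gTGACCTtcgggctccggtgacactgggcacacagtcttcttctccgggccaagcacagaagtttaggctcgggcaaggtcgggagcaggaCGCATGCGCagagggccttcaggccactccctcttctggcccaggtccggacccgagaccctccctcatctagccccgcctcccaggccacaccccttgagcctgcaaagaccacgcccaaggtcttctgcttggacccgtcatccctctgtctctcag
Ogdh promoter (chr11:6292308-6292557, plus strand): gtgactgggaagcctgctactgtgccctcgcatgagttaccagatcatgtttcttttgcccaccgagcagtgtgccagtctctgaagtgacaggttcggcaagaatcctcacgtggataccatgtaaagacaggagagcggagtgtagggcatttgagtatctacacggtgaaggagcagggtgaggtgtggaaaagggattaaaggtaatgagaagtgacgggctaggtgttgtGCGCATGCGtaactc
Ndufs8 promoter (chr19:3912775-3913024, minus strand): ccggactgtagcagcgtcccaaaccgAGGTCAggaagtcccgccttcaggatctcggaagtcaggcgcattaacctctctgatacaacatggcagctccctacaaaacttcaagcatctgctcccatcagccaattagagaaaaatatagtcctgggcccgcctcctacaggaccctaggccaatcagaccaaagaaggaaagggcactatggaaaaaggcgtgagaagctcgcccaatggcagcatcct
Atp5e promoter (chr2:174464102-174464351, minus strand): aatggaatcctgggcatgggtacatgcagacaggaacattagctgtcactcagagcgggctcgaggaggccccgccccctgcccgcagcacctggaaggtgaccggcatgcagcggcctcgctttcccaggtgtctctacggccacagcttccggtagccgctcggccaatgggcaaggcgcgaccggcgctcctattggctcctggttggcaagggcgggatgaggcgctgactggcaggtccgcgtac
Atp5h holds the NRF1 letters first and the GABPA letters nearer the start, and Acadm holds the hexamer first and the NRF1 letters after it. Of 32 genes that fell and have RefSeq promoters, 18 held none of the letters searched in these 250 bases of any start site, among them Atp5b, Dlat, Ndufa1 and Ucp2. The share of all tested genes that held none in the same 250 bases was not computed, so this count has no background beside it. Ogdh has 6 start sites, of which 2 held the letters.

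Promoter windows from 250 bases before to 50 after the start were found for 32 of the 39 genes that fell. The NRF1 letters stood in 7 of the 32 (21.88%), against 16.96% of 8486 tested genes with a window and 7.03% of all 27025 genes of the RefSeq table. The GABPA letters stood in 4 of 32 (12.5%), against 10.51% of tested genes and 4.31% of all. The hexamer AGGTCA stood in 11 of 32 (34.38%), against 14.77% and 18.13%. The longer estrogen-related receptor element TCAAGGTCA, which contains the hexamer, stood in 0 of 32, in 0.31% of tested genes and in 0.47% of all. These shares are descriptions of letters in a window, and several start sites of a gene were searched together.

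Transcription factors and coactivators came first among the roles examined. Of 27 tested PGC-1 coactivators and partner factors, 2 fell: Ppargc1a itself and Cebpb. Cebpb, which encodes the myeloid transcription factor C/EBPbeta, was at 169.88 and 152.85 FPKM in WT and at 55.86 and 58.55 in KO. The groups were far apart, with a fall of 1.48 on the log2 scale (SE 0.063, adjusted p = 2.78e-06), a mean 64.55% lower. Cebpb has a row off the column relations. Nrf1, the nuclear respiratory factor, which has a row off the relations, was at 11.24 and 11.26 FPKM in WT and 7.76 and 9.07 in KO, a log2 difference of -0.38 that did not pass (adjusted p = 0.12). Esrra, the estrogen-related receptor alpha, stood at 18.23 and 20.35 FPKM against 18.02 and 17.58. The related coactivator gene Pprc1 overlapped, at 9.63 and 10.81 against 9.69 and 11.37, and so did Gabpa, at 13.50 and 11.94 against 13.41 and 12.87. The median log2 difference of the list was -0.068.

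Mitochondrial DNA maintenance had 1 gene that fell among 14 tested. Tfam, which packages mitochondrial DNA and starts its transcription, was at 16.67 and 17.65 FPKM in WT and 11.02 and 11.81 in KO (log2 difference -0.55, SE 0.066, adjusted p = 0.0043). Its KO values lay 33.48% below WT on average, and it has a row off the relations. With 1 column left out its log2 difference ranged from -0.595 to -0.503. Tfam was not among the genes called whichever column was left out. The 13 protein-coding genes of the mitochondrial genome, whose transcription needs Tfam, gave no call in limma in either direction, with an unadjusted p under 0.05 in 4. Their median log2 difference was 0.105, and 12 of 13 had a positive difference, against 28.5% of all tested genes. After median-ratio rescaling 10 of 13 had both KO columns above both WT columns, against 16.4% of all genes. The largest was mt-Nd1, a complex I subunit, at 1811.33 and 2356.08 FPKM in WT and 2459.29 and 2549.02 in KO (log2 difference 0.28, adjusted p = 0.64). WT PBS 1 was the low column for mt-Nd1. mt-Co1, the catalytic cytochrome c oxidase subunit, overlapped at 6057.06 and 5731.87 against 6149.35 and 5502.32, and its difference of -0.019 turned positive after median-ratio rescaling (0.031).

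ATP synthase held the most calls of the respiratory lists, with 4 of 17 nuclear subunits lower and 0 higher. Atp5a1, the alpha subunit of the catalytic head, was at 254.06 and 265.98 FPKM in WT and 146.63 and 157.25 in KO (log2 difference -0.77, SE 0.058, adjusted p = 0.000186). Atp5a1 has a row off the relations, while the other 3 have none. Atp5e, the epsilon subunit of the central stalk, was at 249.59 and 292.65 against 155.08 and 161.20 FPKM (-0.77, SE 0.074). Atp5h, subunit d of the peripheral stalk, was at 224.57 and 222.88 against 128.93 and 135.14 (-0.76, SE 0.054). Both genotypes were tight for Atp5h, with a gap much wider than either pair. Atp5b, the beta subunit, was at 719.56 and 647.57 against 495.90 and 526.55 FPKM (-0.42, adjusted p = 0.0312) and did not pass without KO PBS 2 (adjusted p = 0.333). The 13 subunits that were not called ranged from -0.24 to 0.004 (median -0.055). The lowest of them was Atp5o, a stalk subunit, at 183.45 and 170.71 FPKM in WT and 147.08 and 152.30 in KO, with both KO columns lower but an adjusted p of 0.30.

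The other respiratory complexes gave fewer calls. In complex I, 2 of 37 nuclear subunits fell: Ndufs8, which carries iron-sulfur clusters, at 51.07 and 56.42 FPKM in WT against 37.99 and 34.52 in KO (log2 difference -0.56, SE 0.069, adjusted p = 0.0054), and the small membrane subunit Ndufa1, at 125.44 and 115.08 against 94.16 and 91.19 (-0.37, SE 0.059, adjusted p = 0.0288). Neither passed without KO PBS 2, with adjusted p-values of 0.079 and 0.408, and Ndufs8 has a row off the relations. The complex I list had 36 of 37 members below 0, against 71.5% of all tested genes, with a median of -0.089. After median-ratio rescaling 28 of 37 were below 0, against 5120 of all 10638 genes. Its members also differed by a median of 0.135 between the WT PBS columns. Complexes II and III gave 0 calls among 13 genes, 0 of them with an unadjusted p under 0.05 (median -0.065). Their highest members were Uqcrh, at 168.28 and 185.85 against 164.23 and 167.10 FPKM, and Sdhc, at 133.95 and 142.52 against 129.25 and 130.94. In cytochrome c oxidase, 1 of 13 fell: Cox7b, at 315.24 and 305.52 against 219.23 and 218.88 FPKM (-0.50, SE 0.053, adjusted p = 0.0022), with a row off the relations and an adjusted p of 0.0693 without KO PBS 2. None of the 76 tested mitochondrial ribosomal proteins was called, 3 had an unadjusted p under 0.05, and their median of -0.040 (0.008 after rescaling) was close to that of all genes.

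**Figure D2:**
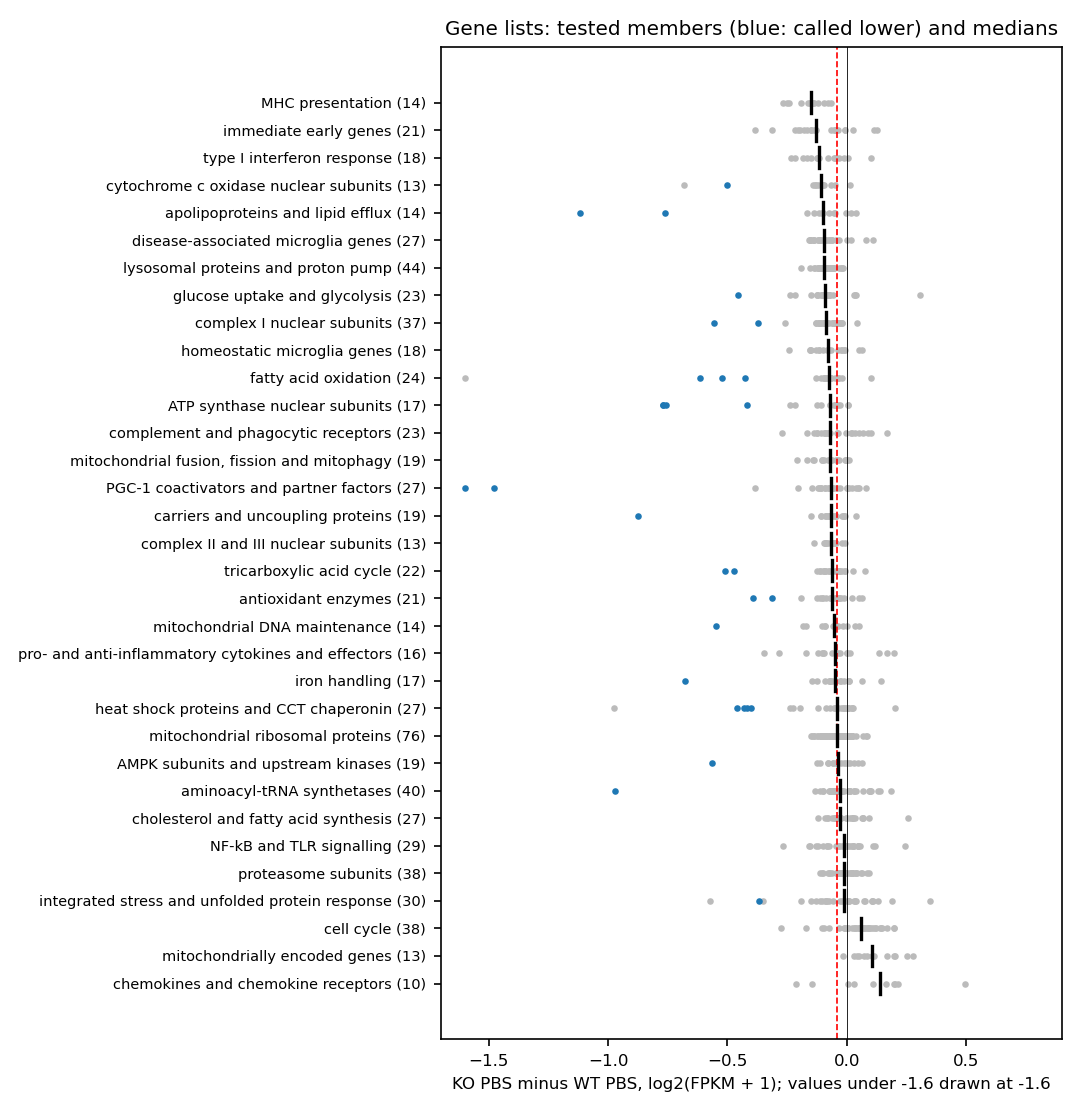
Each row is a fixed gene list with its number of tested members, each point is a member's KO PBS minus WT PBS difference of log2(FPKM + 1), in blue where called lower, and the black bar is the list median. The dashed line is the median of all genes, -0.041. Most calls lie far to the left of lists whose medians stay between -0.149 and 0.137, and no member of any list was called higher.

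Fuel supply genes fell in several steps of fat and pyruvate use. Fatty acid oxidation had 3 of 24 members lower, among them Acsl1 and Acadm. Acsl1, which activates long-chain fatty acids to acyl-CoA, was at 63.21 and 61.24 FPKM in WT and 40.14 and 40.46 in KO (log2 difference -0.61, SE 0.054, adjusted p = 0.000555), with a row off the relations. Acadm, the medium-chain acyl-CoA dehydrogenase of mitochondria, was at 70.97 and 71.93 against 50.75 and 48.02 (-0.52, SE 0.055, adjusted p = 0.0021). Both had KO columns close together and well below WT. Of the rest, Cpt1a, which admits fatty acids to mitochondria, stood at 17.16 and 16.43 against 16.02 and 15.80 and did not pass. Slc27a4, a fatty acid transporter, fell from 8.44 and 8.84 to 5.58 and 5.60 FPKM (-0.55, SE 0.067, adjusted p = 0.0052), but did not pass without KO PBS 2 (adjusted p = 0.0693) or without any other single column.

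In the tricarboxylic acid cycle list, 2 of 22 fell. Dlat, the acetyltransferase core of pyruvate dehydrogenase, was at 43.98 and 42.69 FPKM in WT and 29.70 and 30.48 in KO (log2 difference -0.51, SE 0.055, adjusted p = 0.0023). Ogdh, the 2-oxoglutarate dehydrogenase, was at 42.73 and 43.54 against 30.90 and 30.68 (-0.47, SE 0.054, adjusted p = 0.0034, and 0.0554 without KO PBS 2). Both belong to related dehydrogenase complexes, and in both the columns of a genotype lay close together, with a gap between genotypes. The test selects for such a gap, so it is no separate evidence. Ogdh was not called when any 1 column was left out, with log2 differences from -0.487 to -0.46. Dlat was not called without WT PBS 1, and its differences ranged from -0.533 to -0.491 with 1 column left out. In glycolysis, 1 of 23 fell: Pgk1, phosphoglycerate kinase, from 838.07 and 851.31 to 630.73 and 601.98 FPKM (-0.45, SE 0.058, adjusted p = 0.0062, and 0.394 without KO PBS 2). Slc2a1, the glucose transporter GLUT1, which has a row off the relations, was higher in both KO columns, at 69.77 and 65.15 against 85.23 and 81.97 FPKM, but did not pass (log2 difference 0.31, adjusted p = 0.074).

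Mitochondrial carriers gave 1 call among 19. Ucp2, an uncoupling protein of the inner membrane that is abundant in macrophages, was at 237.67 and 249.03 FPKM in WT and 134.29 and 130.53 in KO (log2 difference -0.87, SE 0.054, adjusted p = 7.06e-05). Its mean was 45.59% lower, and Ucp2 has a row off the relations. The adenine nucleotide carrier Slc25a5 overlapped, at 310.03 and 324.63 against 303.88 and 320.94. Antioxidant enzymes had 2 of 21 lower, the superoxide dismutases of mitochondria and cytosol. Sod2 was at 19.20 and 19.13 FPKM in WT and 14.07 and 14.60 in KO (-0.40, SE 0.059, adjusted p = 0.0199), and Sod1 at 170.18 and 169.37 against 134.89 and 138.22 (-0.31, SE 0.052, adjusted p = 0.0367). Both have a row off the relations, and neither was called when any 1 column was left out. Nfs1, the cysteine desulfurase that supplies sulfur for iron-sulfur clusters, was the only call among 17 iron handling genes, at 57.41 and 57.82 against 35.80 and 35.50 FPKM (-0.68, SE 0.053, adjusted p = 0.000225).

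Lipoprotein genes fell at low absolute levels. In the apolipoprotein and lipid efflux list, 2 of 14 were lower. Apoc1, a lipoprotein component, was at 6.34 and 6.88 FPKM in WT and 2.71 and 2.32 in KO (log2 difference -1.12, SE 0.082, adjusted p = 0.000161), a mean 61.95% lower. Apoc2, the activator of lipoprotein lipase, was at 6.45 and 6.62 against 2.82 and 4.18 (-0.76, SE 0.12, adjusted p = 0.0281). The KO columns of Apoc2 differed from each other, and without KO PBS 1 its difference was -0.54 (adjusted p = 0.0753). It passed in 1 of the 4 fits that left out a column, that without KO PBS 2 (0.00235), and not without WT PBS 1 (0.342) or WT PBS 2 (0.318). Apoa2, a component of high-density lipoprotein, fell from 2.82 and 3.26 to 1.37 and 1.53 FPKM (-0.72, SE 0.084), and Pla2g3, a secreted phospholipase A2, from 1.5 and 1.48 to 0.57 and 0.58 (-0.66, SE 0.075). Apoa2 did not pass without WT PBS 2 (adjusted p = 0.0672), nor Pla2g3 without WT PBS 1 (0.1) or WT PBS 2 (0.067). Apoe, the main apolipoprotein of these cells, stood at 3159.10 and 3255.73 against 2996.65 and 2826.48 FPKM and did not pass (adjusted p = 0.70). No gene of cholesterol and fatty acid synthesis passed among 27, and 1 had an unadjusted p under 0.05 (median -0.028, or 0.021 after rescaling).

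Chaperones had 4 of 27 members lower. Hsp90ab1, the constitutive HSP90, was at 1651.82 and 1635.39 FPKM in WT and 1192.07 and 1198.40 in KO (log2 difference -0.46, SE 0.059, adjusted p = 0.0068). The mitochondrial chaperonin gene Hspd1 was at 368.73 and 367.72 against 260.38 and 285.84 FPKM (-0.43, adjusted p = 0.0119). The HSP40 cochaperones Dnaja1 and Dnajb1 were lower by 25.47% and 26.72%. None of the 4 passed without KO PBS 2, and all but Hsp90ab1 have a row off the relations. Ppp1r15a, a phosphatase subunit of the integrated stress response, was the single call among 30 genes of that response, at 16.54 and 16.21 against 12.60 and 12.36 FPKM (-0.37, adjusted p = 0.0339, and 0.394 without KO PBS 2).

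Among the remaining genes that fell, Aarsd1, which edits mischarged alanyl-tRNA, was at 15.52 and 16.99 FPKM in WT and 7.11 and 8.56 in KO (log2 difference -0.97, SE 0.086, adjusted p = 0.000586). It was the only call among 40 genes of tRNA charging. Gsk3a, a glycogen synthase kinase, was at 31.28 and 32.15 against 20.89 and 21.38 FPKM (-0.56, SE 0.056, adjusted p = 0.0015), with a row off the relations. Hist2h2aa1, a histone H2A gene, fell from 4.20 and 4.58 to 2.66 and 2.62 FPKM, but its near-identical copy Hist2h2aa2 overlapped at 51.47 and 55.68 against 58.44 and 49.67, and how reads were split between them is not given in the sources used here. Hist2h2aa1 did not pass without KO PBS 2 (adjusted p = 0.0904) or without any other single column. Ctps, Fkbp4, Map4k4, Itgam_1 and Akr1a1 also fell, by 31.71%, 27.77%, 26.31%, 24.17% and 19.83%, and are named after their values were seen. Without KO PBS 2 only Ctps passed of these 5 (adjusted p = 0.0414), and the values were 0.0554 for Fkbp4, 0.103 for Map4k4, 0.408 for Itgam_1 and 0.518 for Akr1a1. Fkbp4 and Itgam_1 have a row off the relations. Itgam_1 is a table symbol that keeps a number after the row number is removed, and 48 symbols do so. Itgam was planned as a macrophage and microglia identity marker but had no match under that name, so Itgam_1 entered no list. Itgam_1 stood at 86.28 and 92.88 FPKM in WT and 70.65 and 65.21 in KO (limma adjusted p = 0.0281). The last gene that fell is a predicted gene.

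**Figure D3:**
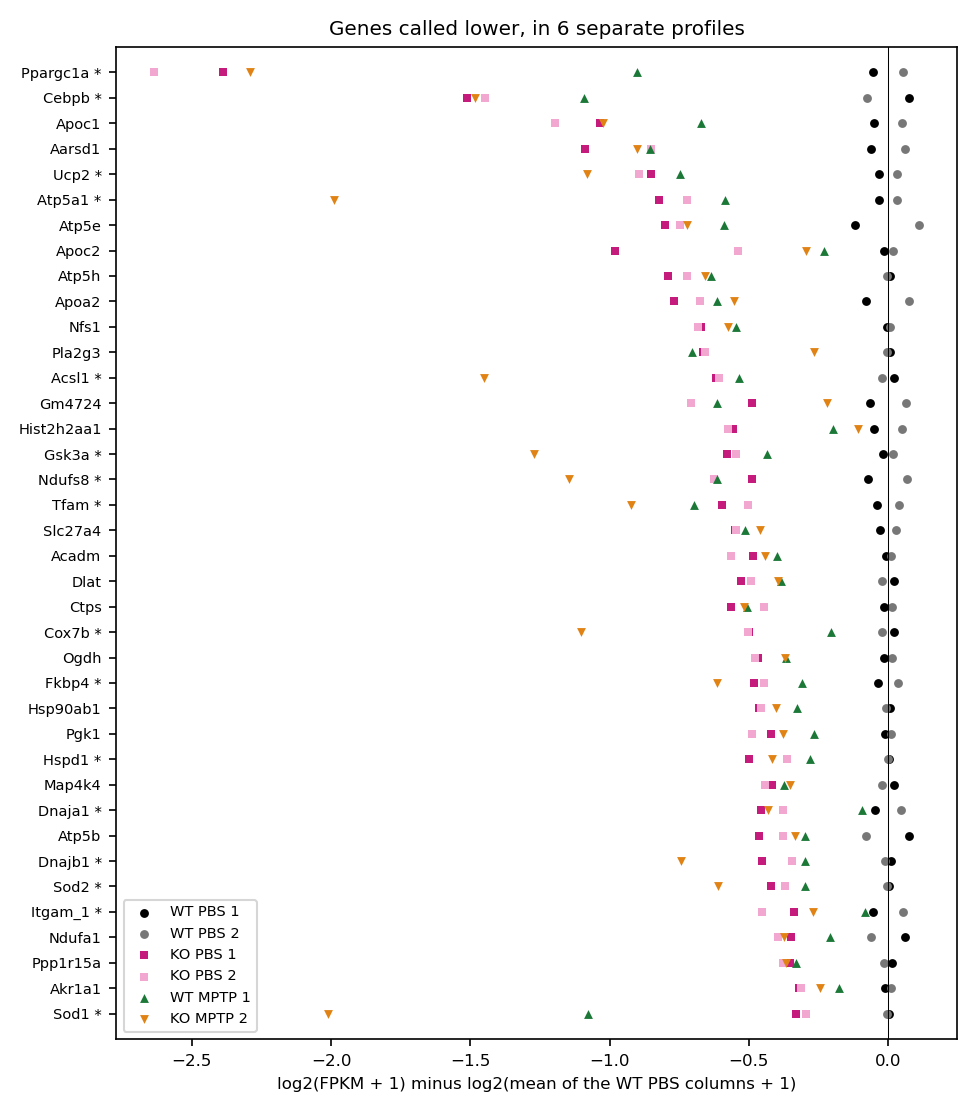
Each row is a gene that fell and is shown here, and each symbol is 1 column, placed by its log2(FPKM + 1) minus that of the WT PBS mean. An asterisk marks genes with a row off the column relations. The WT PBS circles lie near 0 and all KO PBS squares lie to their left, from about the -0.31 of Sod1 to the -2.51 of Ppargc1a. The triangles are the single MPTP profiles.

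Immune gene lists gave no call in limma in either direction. Itgam_1, which fell, was outside all lists because its symbol did not match. The 16 tested cytokines and effectors had a median log2 difference of -0.051, and 2 had an unadjusted p under 0.05, Tgfb1 and Il1b. Tnf stood at 1.39 and 1.73 FPKM in WT and 1.45 and 1.66 in KO, and Il1b at 2.56 and 2.19 against 2.79 and 2.94. Tnf, Il1b and Nos2 have a row off the relations. Tgfb1, an anti-inflammatory cytokine, was lower in both KO columns, at 71.22 and 73.86 against 60.06 and 58.75 FPKM, without passing (log2 difference -0.28, adjusted p = 0.0761). Arg1 was at 2792.96 and 2769.23 against 2697.70 and 2478.48, and the nitric oxide synthase Nos2 overlapped at 36.66 and 32.00 against 40.81 and 34.71. The 10 tested chemokines and receptors had a median of 0.137, the highest of the pathway lists, with Ccl3 at 38.39 and 48.24 against 45.18 and 51.69 FPKM. The 29 genes of NF-kB and Toll-like receptor signalling had a median of -0.014, or 0.032 after median-ratio rescaling. An unadjusted p under 0.05 was found in 4 chemokine genes, of which 2 were lower, and in 2 genes of the signalling list.

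Antigen presentation had the lowest median of the pathway lists, -0.149, over 14 genes. The marker list of monocytes and border macrophages, cells that carry antigen presentation genes as well, stood at -0.15. This was over its 4 tested genes, Mrc1, Pf4, F13a1 and Ms4a7, while Ccr2, Ly6c1, Ly6c2 and Lyve1 stayed under 1 FPKM. The part of such cells in the difference was not tested. The general macrophage and microglia identity list stood at -0.111 over its 8 tested genes. In each of these 2 marker lists, 75.0% of tested members had both KO columns below both WT columns. Of the antigen presentation genes, 12 of the 14 (85.7%) had both KO columns below both WT columns, against 33.8% of all genes. After median-ratio rescaling this was 71.4%, against 16.7%. Its members Cd74, the invariant chain, at 219.43 and 241.60 against 209.45 and 203.79 FPKM, and B2m, at 1109.06 and 1036.27 against 1030.39 and 974.99, did not pass. In this list 10 of 14 had an unadjusted p under 0.05, all lower, against 782 of all 10638 genes in both directions. For lysosomal and proton pump genes the share was 79.5% of 44, and it was 40.9% after rescaling, with 0 calls and a median of -0.095. The disease-associated microglia genes gave 0 calls among 27 (median -0.097), the homeostatic microglia genes 0 among 18 (median -0.079) and the type I interferon response 0 among 18 (median -0.118). The 38 cell cycle genes had a median of 0.057, or 0.104 after rescaling, with 0 calls. An unadjusted p under 0.05 was found for 5 lysosomal, 6 disease-associated, 5 homeostatic, 4 interferon and 5 cell cycle genes. Immediate early genes had 0 calls among 21 (8 unadjusted, median -0.130), complement and phagocytic receptors 0 among 23 (5 unadjusted), mitochondrial dynamics 0 among 19 (2 unadjusted) and the proteasome 0 among 38 (0 unadjusted). These shares describe the order of 4 columns.

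Only 2 genes rose, both predicted genes of unknown product named here because they are so few. Gm26602 was listed at 0 in both WT columns and at 1.2 and 1.56 FPKM in KO, and Gm14434 was at 1.69 and 1.89 against 2.71 and 3.26 (log2 difference 0.51, adjusted p = 0.0469). Gm14434 was not called when any 1 column was left out, with log2 differences from 0.412 to 0.612. Those of Gm26602 ranged from 1.138 to 1.356. Among genes with a mean of at least 5 FPKM and both KO columns above WT, the highest differences belonged to Lsm7, an RNA-binding protein, at 7.19 and 12.29 against 12.86 and 15.09 FPKM, and Lbhd1, at 6.51 and 8.79 against 10.84 and 10.65. Neither passed the test (adjusted p = 0.59 and 0.28).

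Large mean differences could rest on 1 column, as in 3 genes named after their values were seen. Acsl3, another acyl-CoA synthetase, was at 152.71 FPKM in WT PBS 1 but at 17.19 in WT PBS 2, against 13.04 and 12.65 in KO (log2 difference -1.93, adjusted p = 0.62). Lpin2, a phosphatidate phosphatase, was at 24.26 and 194.78 against 14.66 and 14.33 (-2.18, adjusted p = 0.54). Prkag2, a regulatory AMPK subunit with a row off the relations, was at 28.38 and 28.09 in WT and at 26.63 and 127.17 in KO, so that KO PBS 2 alone was high.

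The table lists several numbered rows per symbol, and the definition of a row is not given in the sources used here. In each gene that fell, the row with the largest difference in these columns was set apart. That choice by itself leaves smaller differences to the other rows. For the 16 genes that fell and whose other rows summed to at least 3 FPKM in WT, those rows were within 20% of WT in 14. They were below 80% of WT in 2. The band is as wide as some called falls, such as the 19.57% of Sod1, and holds Dlat, whose other rows had a ratio of 0.82. In Atp5h, row 7 went from 163.58 and 173.53 to 80.68 and 72.36 FPKM, a ratio of 0.454, while the remaining rows averaged 55.17 in WT and 55.52 in KO. Tfam had a ratio of 0.545 in its row 5 and 1.014 in the others together. Ucp2 was an exception, with 0.412 in row 3 and 0.673 in the rest. When each row was tested as a feature, 1 of 19212 passed, the Ucp2 row (log2 difference -1.26, adjusted p = 0.0461), and 1163 had an unadjusted p under 0.05.

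**Figure D4:**
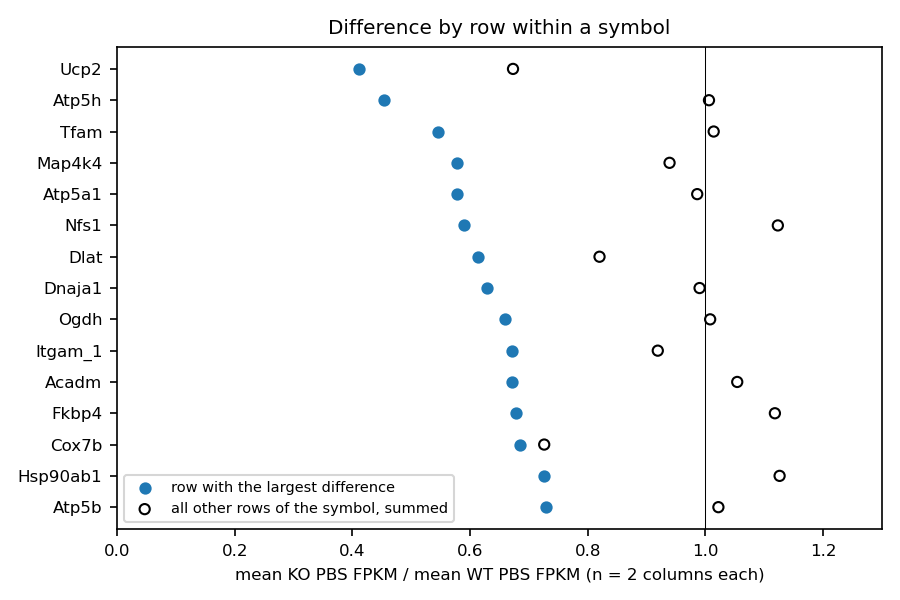
Ratio of mean KO PBS to mean WT PBS FPKM for the row with the largest difference (filled) and for all other rows of the same symbol summed (open), in genes that fell and whose other rows reached 3 FPKM in WT. Filled points lie between 0.412 and 0.729, and the open points of all genes shown but Ucp2 and Cox7b lie within 20% of 1.

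The genes that fell were also read in the MPTP profiles, which the test did not use: WT MPTP 1 and KO MPTP 2, 1 profile each and so without a replicate check. In the 23 genes with no row off the relations, 17 were lower in KO MPTP 2 than in WT MPTP 1, with a median log2 difference of -0.03, against -0.52 under PBS. In the 16 with such a row, all 16 were lower, with a median of -0.419 after MPTP and -0.525 under PBS. Among all tested genes, 53.6% were lower and the median was -0.008. The off-relation genes included Atp5a1, at 172.83 FPKM in WT MPTP 1 and 64.69 in KO MPTP 2, and Acsl1, at 42.58 and 22.10. Among the rest, Nfs1 was at 39.14 FPKM in WT MPTP 1 and 38.31 in KO MPTP 2, beside 57.41 and 57.82 in WT PBS. Acadm was at 53.89 and 52.31 after MPTP, beside 70.97 and 71.93 in WT PBS. Apoc1, at 3.78 and 2.74, was the exception with a difference below -0.3. Ppargc1a stood at 2.72 in WT MPTP 1 and 0.42 in KO MPTP 2.

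**Figure D5:**
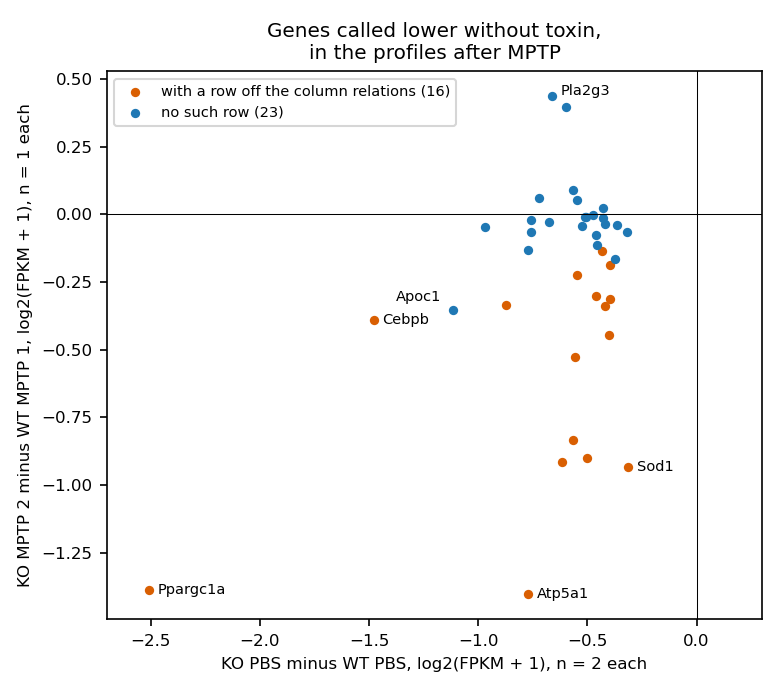
Each point is a gene that fell, with its KO minus WT difference of log2(FPKM + 1) under PBS on the x axis and in the single profiles after MPTP on the y axis. The 23 genes without an off-relation row (blue) lie around 0 on the y axis, with a median of -0.03, and the 16 with such a row (orange) all lie below 0, with a median of -0.419.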

How the data were processed

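RNA-seq of flow-sorted mouse midbrain microglia was deposited as 1 table of 67355 rows and 12 columns. No header states a unit, and the values the authors deposited were taken as FPKM, which Cufflinks writes. Per the submitters' processing notes, which state neither roles nor order, the build was mm9 and the tools TopHat, Cufflinks, Bowtie 0.12.7 and CASAVA 1.5. The sources used here give no annotation, strand handling, row definition or read depth, and counting intervals could not be computed. Since the reference is of another build, no coordinates other than RefSeq GRCm38.p6 promoters are printed.

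A trailing row number was removed from each row name and rows were summed per symbol. 1 row with a text cell was left out, and 20635 of 21135 symbols matched the reference. Columns were mapped to samples by name. Genes reaching 1 FPKM in 2 or more of the 4 columns were tested on log2(FPKM + 1) values with limma 3.58.1 in R 4.3.3, using its intensity trend, 1 mean per genotype, 2 residual and 7.94 prior degrees of freedom, and Benjamini-Hochberg adjustment over 10638 genes at 0.05. Fold changes on this scale understate those of low genes. A gene was off the relations when a row of it departed by more than 0.0101 FPKM (1.02 relations) or 0.00995 FPKM (column 3), as rounding allows. The procedure was tested on simulated data.

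Named genes were Ppargc1a, the 20 largest falls and 10 largest rises (filled with uncalled genes of mean 5 or more), and up to 4 called members of each of 33 pathway and 11 marker lists, or the 2 highest; some of these are not reported here. The members, lists and tests were chosen with earlier results of these data known. Alternatives were other pseudocounts (0.1 and 0.5), no filter or 5 FPKM, rescaling, quantile normalization, the top row per symbol, each column left out, column 3 added, 6 profiles in 1 fit, a replicate block, no trend, and genes off the relations left out. Testing each row, leaving out KO PBS 2 together with those genes, and testing the genotype difference between treatments without KO PBS 2 were added after seeing the data.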

Additional observations from a re-analysis of the deposited data

Results flagged for a closer look

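In a fit of the 6 separate profiles, the genotype difference after MPTP was tested against that under PBS. The PBS side includes KO PBS 2, whose treatment is uncertain since KO MPTP 1 is a multiple of it. The MPTP groups had 1 profile each and were assumed to vary like the PBS pairs. Of 10638 genes, 4 passed (633 had an unadjusted p under 0.05), and 3 of them had fallen without toxin. That fall is itself a term of the contrast, so it is no separate evidence. Cebpb differed by 1.088 on the log2 scale (SE 0.11, limma adjusted p = 0.0193): KO was far below WT under PBS, and after MPTP the values were 75.13 FPKM in WT and 57.06 in KO. Pla2g3 differed by 1.097 (SE 0.13, adjusted p = 0.0278), with 0.53 FPKM in WT and 1.07 in KO after MPTP. Atp5h differed by 0.734 (SE 0.093, adjusted p = 0.0359), with 143.62 and 141.33 FPKM after MPTP. The other gene was Neat1, a nuclear long noncoding RNA that had not been called without toxin, at 38.08 FPKM in WT MPTP 1 and 59.49 in KO MPTP 2 (difference 0.86, adjusted p = 0.0278). Without KO PBS 2, a fit added after seeing the data, 6 genes passed (548 with an unadjusted p under 0.05), 2 of these 4 among them: the difference was 1.12 for Cebpb (adjusted p = 0.0254) and 1.10 for Pla2g3 (0.0391), while Neat1 (0.88, adjusted p = 0.0508) and Atp5h (0.77, adjusted p = 0.0949) did not pass. Cebpb has a row off the column relations.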

How the results depend on the processing

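The 41 calls (39 lower) became 0 with no filter (1382 of 19804 genes had an unadjusted p under 0.05), 27 after median-ratio rescaling, 25 (23 lower) after quantile normalization, 22 (21 lower) with genes off the relations left out, and 432 (414 lower) with the computed column 3 added. Leaving out 1 column gave 21 to 36 calls, 19 to 29 of them lower. Added after seeing the data, testing each row gave 1 call, and leaving out KO PBS 2 and the off-relation genes together gave 14 (13 lower). Ppargc1a kept -2.51 with no filter but an adjusted p of 0.221. Same-numbered columns had correlated deviations (0.23), and the labels do not say that a number pairs samples. A fit with a replicate block gave 40 calls (37 lower). Of 1345 single-gene values under alternatives, 38 changed sign, all in genes that were not called. After median-ratio rescaling these were Mrps21 0.016, Mrpl30 0.017, Scd2 0.021, Tlr13 0.03, mt-Co1 0.031 and Csf3r 0.002. After quantile normalization they were Uqcrh 0.027, Mrps21 0.041, Mrpl30 0.034, Bnip3l 0.018, Scd2 0.045, Fdps 0.003, Tlr13 0.034, Laptm5 0.076, Fcgr3 0.025, Cdk4 0.042, Csf3r 0.004 and Mrc1 0.019. With the top row per symbol they were Rtel1 -0.204, Mrps21 0.012, Spp1 -0.003 and Eif2ak2 0.01. With 1 column left out they ranged from -0.103 to 0.036 for Mrps21, -0.081 to 0.025 for Scd2, -0.284 to 0.1 for Fdps, -0.05 to 0.054 for Spp1, -0.044 to 0.006 for Tlr13, -0.099 to 0.062 for mt-Co1, -0.079 to 0.025 for Csf3r and -0.162 to 0.005 for Mrc1. Without KO PBS 2 and the off-relation genes together they were Tlr13 0.006, mt-Co1 0.062, Csf3r 0.01 and Mrc1 0.005. The causes were not tested.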
